A study of Mus musculus with 28 samples.

Results

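CreERT2, the recombinase driven by Sftpc in these mouse lungs, is a fusion of Cre with the ligand-binding domain of the estrogen receptor, so its RNA can add reads to the gene Esr1. The 19 RNA libraries of the series, of 28 libraries in all, were grouped by their Esr1 counts and not by their genotype labels. Esr1 CPM (the gene's count per 1 M counts of the library) of 50 or more made a library high, and values under 10 made it low. By that rule 12 libraries were high and 7 were low. Because a measured transcript chose the groups, the Esr1 values below are a description, and no test of Esr1 is given. Reads of the mouse's own Esr1 and of the receptor part of the recombinase cannot be told apart in these counts.

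The Yap active line is Stk3flox/flox/Stk4flox/flox, with SftpcCreert2 in 6 libraries labelled active and without it in 4 labelled control. The Yap deleted line is Yapflox/flox, with SftpcCreert2 in 5 libraries labelled deleted and without it in 4 labelled control. All groups thus carry floxed alleles, and they differ in the recombinase. Yap was altered on postnatal day 3 and lungs were taken on postnatal day 14. The sort took cells positive for CD326 (EPCAM) and left out those positive for CD31, CD271, CD90.2, Ter119, CD16/32 or CD45, and polyadenylated RNA was sequenced. The labels call the cells AT2. The Sftpc promoter confines the recombinase to alveolar type 2 (AT2) cells, while EPCAM is carried by all lung epithelium, so each library can mix recombined and other cells. The labels name neither the agent that switched the recombinase on nor whether the controls received it. They also do not say whether each library is a separate animal, so p-values measure the spread between these samples only.

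In tamoxifen-dependent systems, CreERT2 stays in the cytoplasm until its ligand lets it enter the nucleus, where it cuts DNA at loxP sites. DNA breaks are sensed by kinases that stabilise p53, a transcription factor kept low in resting cells by the ubiquitin ligase Mdm2. Stabilised p53 binds paired copies of a short consensus in DNA and raises genes of cell cycle arrest such as Cdkn1a, of apoptosis such as Bax, and of its own feedback such as Mdm2 and Ccng1. AT2 cells secrete surfactant and serve as progenitors of the thin alveolar type 1 (AT1) cells that carry out gas exchange.

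Esr1 fell into 2 ranges with none of the libraries between them. In the Yap active line, control libraries 1 to 4 held 2.39, 166, 3.61 and 0.876 CPM of Esr1. Active libraries 1 to 6 held 2.14, 234, 206, 305, 264 and 247 CPM. In the Yap deleted line, control libraries 1 to 4 held 1.98, 95.2, 3.88 and 0.903 CPM, and deleted libraries 1 to 5 held 533, 387, 245, 241 and 255 CPM. The library just inside the upper limit was the one labelled deleted control 2, and the one just under the lower limit was deleted control 3. For 16 libraries the Esr1 group matched the label, and for 3 it did not. The library labelled active 1 was low, and those labelled active control 2 and deleted control 2 were high.

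**Figure D1:**
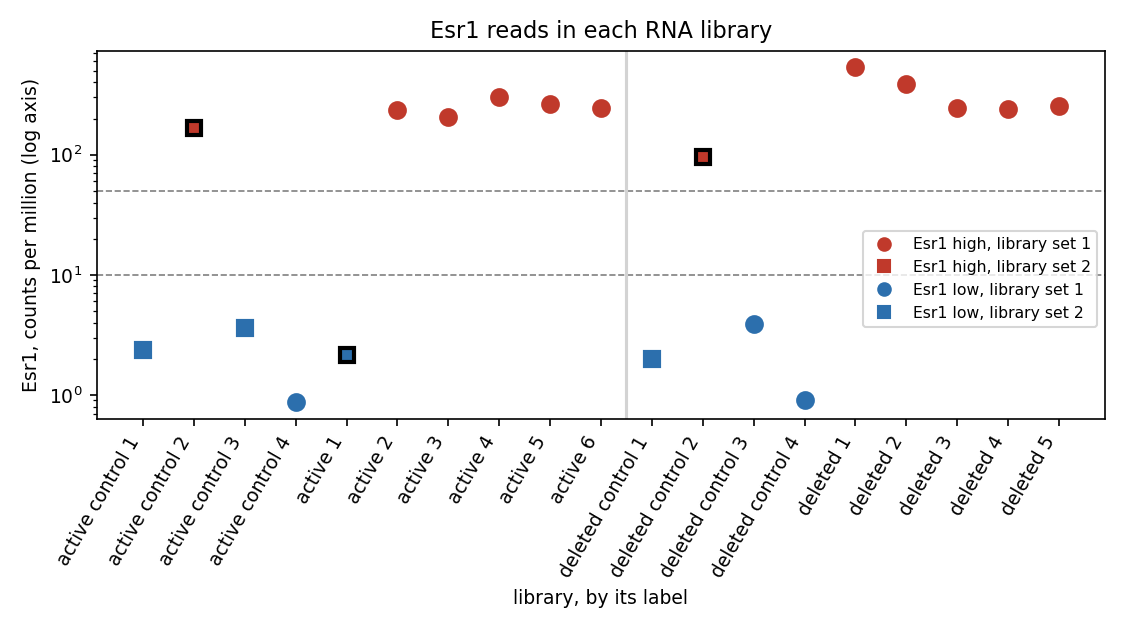
Esr1 CPM (log axis) in each of the 19 RNA libraries, named by label. Red marks high and blue low libraries, circles and squares the 2 library sets, black outlines the 3 libraries against their label, and dashed lines the limits of 10 and 50 CPM. No library lies between the limits.

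Library totals were 31947748 to 43544559 counts, and genes far under 1 CPM rest on few counts. From here on, levels of genes are CPM scaled by TMM, edgeR's correction for library composition (factors of 0.872 to 1.13), while the Esr1 values above are not scaled. Libraries also differed in a way that neither Esr1 nor genotype gives. From the order of columns in the deposited tables, 6 libraries (active control 1 to 3, active 1, deleted control 1 and 2) form a second set, called set 2 here, apart from the other 13, set 1. Over all genes, the nearest library within its own line was of the same set for 19 of 19 libraries, and of the same Esr1 group for 11 of 19. Set 1 held 10 high and 3 low libraries, and set 2 held 2 high and 4 low. The 3 libraries against their label are all in set 2. Values with the set as a further factor are therefore given beside the main ones. The labels do not say what the sets are, and the order of columns is their source. By Xist and Y-linked counts, 5 high and 3 low libraries were XX, and 7 high and 4 low were XY.

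High libraries carried more RNA of p53 target genes than low libraries in both lines. With line as a factor, edgeR's quasi-likelihood test called 25 of 16546 genes other than Esr1 at an adjusted p under 0.05, 0.151% of those tested, of which 24 were higher (0.145%) and 1 lower (0.00604%) with high Esr1. Of the 24, 9 are on a list of p53 target genes: Cdkn1a, Gdf15, Psrc1, 9030617O03Rik, Phlda3, Ccng1, Zmat3, Bax and Aen. Gm16197 is not on that list but is the mouse lincRNA-p21 (Trp53cor1), a noncoding RNA that p53 is known to induce. The other risers included the histamine-synthesising enzyme Hdc, the kallikreins Klk13 and Klk14, and Bmp1, whose gene lies beside Sftpc. High and low libraries did not overlap in either line for 19 genes, all higher (0.115% of genes tested), and 17 of these were among the called. On CPM not scaled by TMM 24 genes did not overlap, all higher, 16 of them among the called. Within 1 line, 0.943% and 1.15% of genes were higher and lower without overlap in the Yap active line, and 0.852% and 0.677% in the Yap deleted line. DESeq2 called 160 genes, the 25 among them (0.967%; 0.701% higher and 0.266% lower, and 11.5% and 8.68% at an unadjusted p under 0.05). All 25 kept their direction when each library was left out in turn, and 16 kept the call each time. The count was 16 without active control 1 or without active 1, 54 without active control 2, 75 without active control 4 and 651 without deleted control 2. With the library set as a further factor 23 genes were called (0.139%), all higher, and 16 of the 25 were among them.

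Cdkn1a encodes p21, an inhibitor of cyclin-dependent kinases, and had the smallest p of the genes tested other than Esr1. The 4 low libraries of the Yap active line held 57.4, 50.04, 71.6 and 61.3 CPM of Cdkn1a, and the 6 high libraries 305 to 661 CPM (median 530.1). For the Yap deleted line the values were 49.8, 97.2 and 92.3 CPM in the 3 low libraries and 236 to 793 CPM (median 454) in the 6 high ones. Every high library exceeded every low library of its line. The rise was 2.82 ± 0.25 (SE) on the log2 scale, a 7.06-fold difference (edgeR adjusted p = 8.98e-06), and 2.52 ± 0.19 (SE) with the library set as a factor (edgeR adjusted p = 1.65e-06). The 3 libraries against their label followed Esr1. The library labelled active 1 held 61.3 CPM, and those labelled active control 2 and deleted control 2 held 305 and 236 CPM. Within set 1 alone the difference was 2.61, and within set 2 alone 2.35, where it was the only gene called.

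Gdf15, a secreted stress cytokine of the TGF-beta superfamily, rose most among the called genes. Low libraries of the Yap active line held 3.97, 2.49, 4.77 and 4.09 CPM of Gdf15, against 33.9 to 73.2 CPM (median 55.4) in the 6 high libraries. Those of the Yap deleted line held 1.13, 5.88 and 6.70 CPM, against 20.3 to 132 CPM (median 67.4) in 6 high libraries. The groups did not overlap. The rise was 3.83 ± 0.40 (SE), or 14.3-fold (edgeR adjusted p = 6.31e-05), and 3.60 with the library set as a factor. Psrc1, a microtubule-associated protein, came next. Psrc1 lay at 2.90, 1.36, 7.32 and 1.85 CPM in the 4 low libraries of the Yap active line and at 14.2 to 42.3 CPM (median 38.6) in its 6 high libraries. The 3 low libraries of the Yap deleted line held 2.76, 2.30 and 1.39 CPM, and its 6 high libraries 13.7 to 64.3 CPM (median 30.9). Active control 4 was the highest of the low libraries and still lay under every high one. The rise of Psrc1 was 3.55 ± 0.43 (SE) on the log2 scale (edgeR adjusted p = 2.66e-04).

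**Figure D2:**
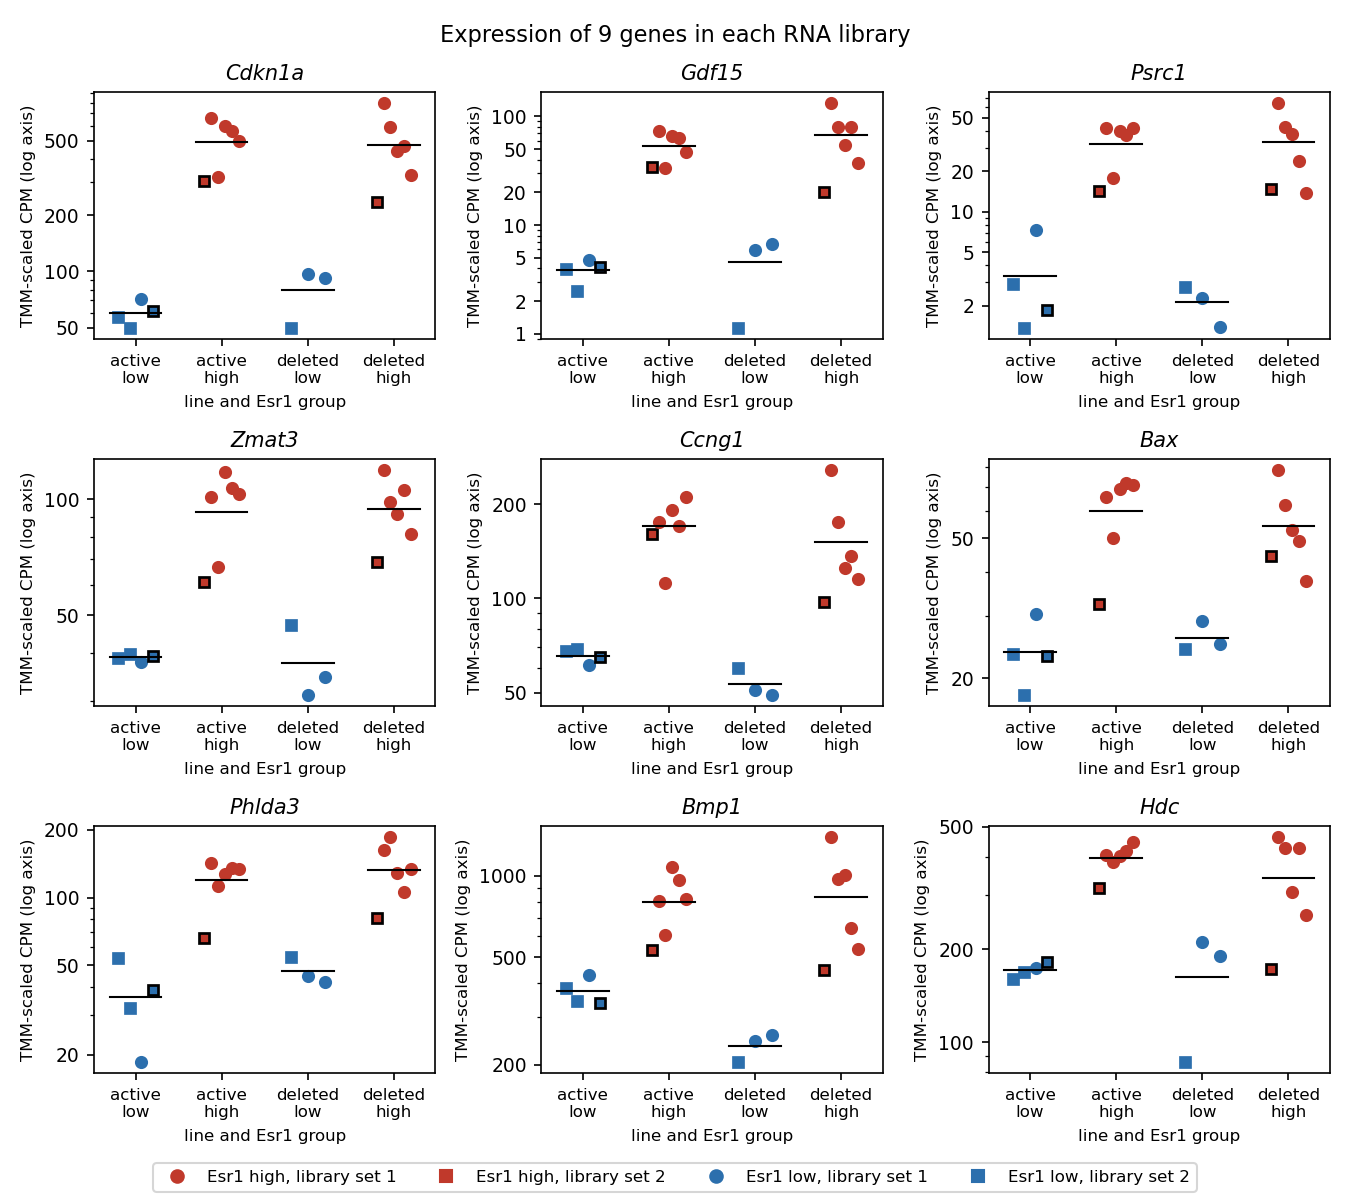
TMM-scaled CPM (log axis) of 9 genes in each library, by line and Esr1 group; bars are group means, circles and squares the 2 library sets, and black outlines the 3 libraries against their label. For Cdkn1a every high library lies above every low library of its line. For Hdc deleted control 2 lies among the low libraries, but above the low library of its own set.

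Ccng1 and Zmat3, also on the p53 list, moved by less than Cdkn1a, Gdf15 and Psrc1. Ccng1 encodes cyclin G1, which takes part in the feedback between p53 and Mdm2. The 4 low libraries of the Yap active line held 67.7, 68.8, 61.2 and 64.8 CPM of Ccng1, and the 6 high libraries 112 to 211 CPM (median 173). For the Yap deleted line the values were 59.8, 51.1 and 49.1 CPM in the 3 low libraries and 97.1 to 257 CPM (median 130.5) in the 6 high ones. Zmat3, an RNA-binding zinc finger protein, lay at 37.9 to 39.8 CPM in low and 61.1 to 118 CPM in high libraries of the Yap active line. The same gene lay at 31.1 to 47.2 against 68.7 to 119 CPM in the Yap deleted line. Neither gene overlapped between groups. Ccng1 rose by 1.43 ± 0.17 (SE) and Zmat3 by 1.28 ± 0.14 (SE) on the log2 scale (edgeR adjusted p = 1.87e-04 and 1.08e-04). The Yap active line's high libraries held less Ccng1 in active 3 (112 CPM) than in the other 5, and those of the Yap deleted line held least in deleted control 2 (97.1 CPM).

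Of the apoptosis genes, Bax, which opens the outer mitochondrial membrane, lay at 17.9 to 30.5 CPM in low and 32.6 to 71.7 CPM in high libraries of the Yap active line, and at 24.2 to 29.1 against 37.8 to 78.1 CPM in the Yap deleted line. It rose by 1.21 ± 0.17 (SE) (edgeR adjusted p = 0.00164). Aen, a nuclease of the apoptotic programme, rose by 1.05 ± 0.17 (SE) (edgeR adjusted p = 0.00549). In the Yap active line its groups overlapped, since active control 2 held 22.2 CPM and active control 4, a low library, 26.3 CPM. These libraries are of different sets. Within set 2 the low libraries held 17.5 to 19.3 CPM, and within set 1 the high libraries held 43.0 to 55.8 CPM, so neither set overlapped. Phlda3, which binds phosphoinositides and restrains Akt, lay at 18.5 to 54.1 against 66.2 to 142 CPM in the Yap active line and at 42.2 to 54.4 against 81.1 to 185 CPM in the Yap deleted line. It rose by 1.62 ± 0.21 (SE) (edgeR adjusted p = 4.88e-04). 9030617O03Rik, now named Dglucy, a mitochondrial D-glutamate cyclase, rose by 2.16 ± 0.24 (SE) (edgeR adjusted p = 1.20e-04), with 4.77 to 8.66 CPM in low against 20.4 to 38.2 CPM in high libraries of the Yap active line and 6.57 to 8.32 against 12.5 to 53.5 CPM in the Yap deleted line.

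The p53 list as a whole holds 40 genes, of which 39 could be tested. Of these 27 were higher and 12 lower with high Esr1, against 47.9% of all genes higher and 52.1% lower. The median was 0.31 on the log2 scale, against −0.02 over all genes tested, and 0.29 with the library set as a factor. At an unadjusted p under 0.05, 18 were higher and 0 lower, where 10.2% and 7.01% of all genes were. With the set as a factor 31 were higher and 8 lower (all genes 51.8% and 48.2%). The counts at that p were then 20 and 0, against 4.29% and 2.89%. The list was drawn up with earlier results of these libraries known, so its direction is not independent evidence. Summed over the list, low libraries held 1445 to 1589 CPM in the Yap active and 1621 to 1712 CPM in the Yap deleted line. High libraries held 2128 to 3027 and 1974 to 3595 CPM, and the groups overlapped in neither line.

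With line as the only factor, several well-known p53 targets did not differ beyond the spread of the libraries. Mdm2 lay at 62.9 to 100.4 CPM in low and 61.9 to 106 CPM in high libraries, a difference of 0.03 ± 0.11 (SE). Within set 1 of the Yap active line, active control 4 held 62.9 CPM and the high libraries 61.9 to 89.7 CPM. Within set 2 of that line, low libraries held 80.4 to 100.4 CPM and active control 2, a high library, 103.6 CPM. For the Yap deleted line, low against high, the values were 81.6 and 86.0 against 77.8 to 106 CPM in set 1. They were 74.5 against 80.0 CPM in set 2. The damage-sensing repair gene Ddb2 differed by −0.07 ± 0.11 (SE), the death receptor Fas by −0.21 ± 0.29 (SE), the arrest gene Btg2 by 0.03 ± 0.11 (SE) and the ribonucleotide reductase subunit Rrm2b by −0.18 ± 0.13 (SE). Trp53 itself, whose protein is regulated chiefly by its stability, differed by 0.16 ± 0.14 (SE) (edgeR adjusted p = 0.522). Between these and the called genes stood Tnfrsf10b, a death receptor, at 1.12 ± 0.24 (SE), Ephx1, an epoxide hydrolase, at 1.05 ± 0.23 (SE), and Rps27l, a ribosomal protein paralog, at 1.01 ± 0.24 (SE), none of them called (edgeR adjusted p = 0.0869, 0.0882 and 0.147). With the library set as a factor Tnfrsf10b was called, as was Trp53inp1 at 0.62 ± 0.10 (SE) (edgeR adjusted p = 0.0252 and 0.0107). Bbc3 (PUMA) differed by 0.94 in the Yap active line, where the groups did not overlap, and by 0.20 in the Yap deleted line.

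**Figure D3:**
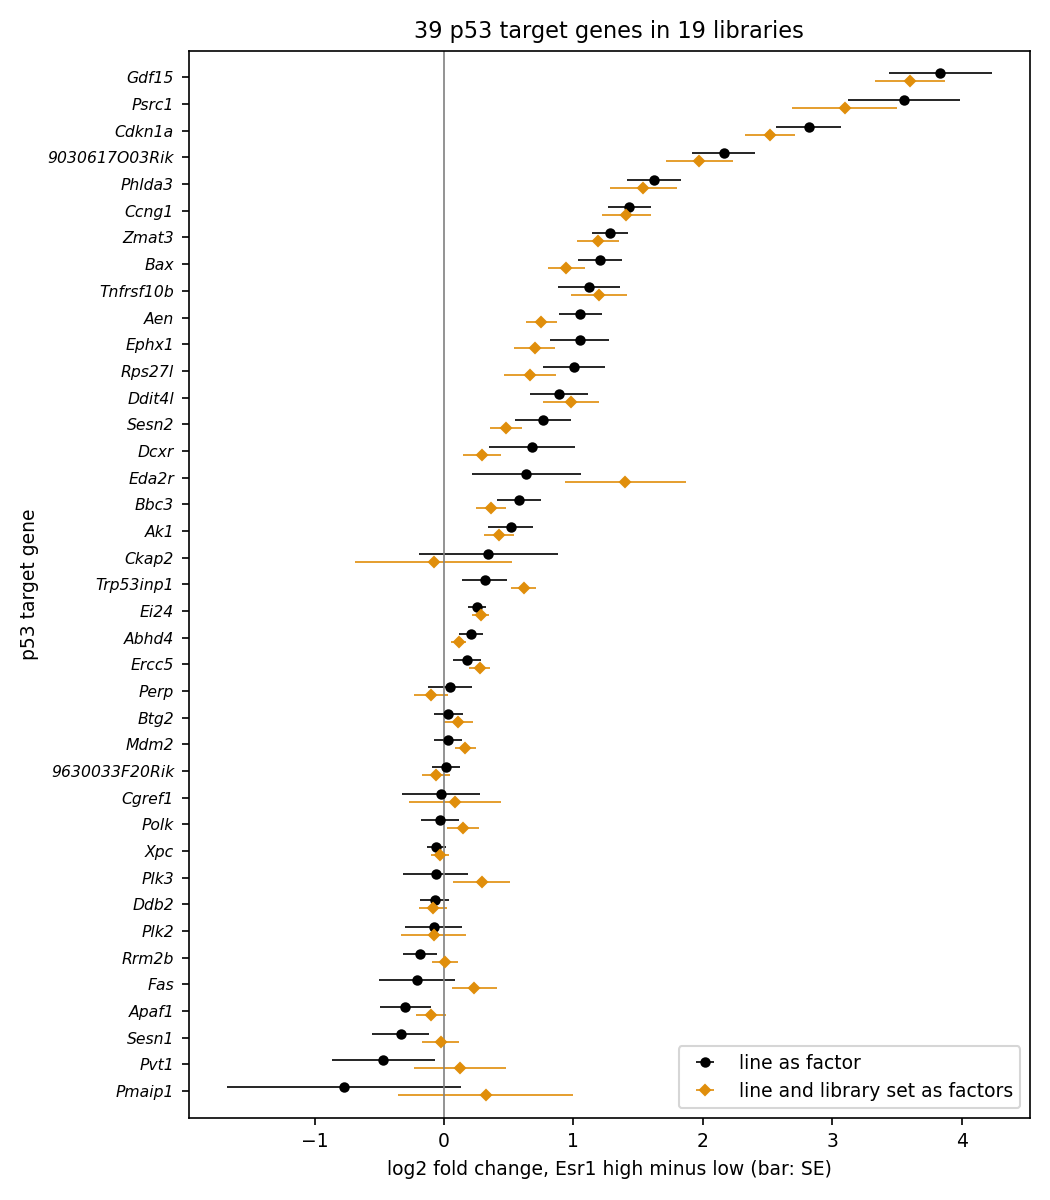
Log2 fold change (high minus low Esr1) of 39 p53 target genes with its standard error, with line as a factor (black) and with line and library set as factors (orange). With line as the only factor, Gdf15, Psrc1 and Cdkn1a stand highest at 3.83, 3.55 and 2.82, and genes such as Mdm2 and Ddb2 lie near 0.

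The p53 consensus decamer, searched on both strands, occurred within 250 bases before to 50 bases after the start of 6 of the 22 called genes with a promoter sequence in RefSeq (27.3%: Aen, Bax, Ccng1, Cdkn1a, Exoc4 and Klk13). It occurred in 12 of 30 promoters of the p53 list (40%), in 8.60% of those of all genes tested and in 9.55% of all 27025 promoters. The stretches below show it for called genes, with the decamer in capitals, from RefSeq on build GRCm38.p6, 5′ to 3′ on the gene's strand.
Cdkn1a, chr17:29090891-29090952, plus strand: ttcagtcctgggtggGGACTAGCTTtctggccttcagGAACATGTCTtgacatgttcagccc
Ccng1, chr11:40755437-40755496, minus strand: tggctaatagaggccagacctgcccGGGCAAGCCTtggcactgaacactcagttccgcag
Bax, chr7:45467065-45467124, minus strand: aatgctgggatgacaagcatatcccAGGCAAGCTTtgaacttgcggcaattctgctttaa
Exoc4, chr6:33248900-33248959, plus strand: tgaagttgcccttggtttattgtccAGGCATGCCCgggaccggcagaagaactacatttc
Klk13, chr7:43712433-43712492, plus strand: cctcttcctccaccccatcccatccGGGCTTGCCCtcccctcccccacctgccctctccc

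The matches in the Cdkn1a stretch do not adjoin each other, and their far ends lie 73 and 51 bases before the start. The bases directly after the match nearer the start are not an exact match, so they stand in lower case. Which of these bases would form a paired p53 site was not tested. A match to the letters is a description and does not show that p53 binds there. Gdf15 and Psrc1, which rose most, had a promoter sequence in the table and no match in this window, which covers only the bases around the start.

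Gm16197 lies 11852 bases from Cdkn1a on chromosome 17 (build GRCm38.p6, chr17:29057474-29079126). Low libraries of the Yap active line held 0.593, 0.470, 0.287 and 0.572 CPM of Gm16197, against 2.55 to 6.47 CPM (median 5.40) in the 6 high libraries. Those of the Yap deleted line held 1.13, 1.39 and 0.679 CPM, against 2.01 to 8.59 CPM (median 3.97) in 6 high libraries. It rose by 2.81 ± 0.34 (SE) (edgeR adjusted p = 2.44e-04) and did not overlap between groups. Of 19 tested genes within 500 kb of Cdkn1a, it was the only one called. Of the 19, 6 had an unadjusted p under 0.05, as had 2850 of all 16546 genes tested. Bmp1, a metalloprotease that cleaves procollagen, lies 224 bases from Sftpc on chromosome 14 (chr14:70474555-70520716), the locus whose promoter drives the recombinase.

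Bmp1 lay at 384, 345, 431 and 339.6 CPM in the 4 low libraries of the Yap active line and at 532 to 1077 CPM (median 813) in its 6 high libraries. The 3 low libraries of the Yap deleted line held 205, 244 and 258 CPM, and its 6 high libraries 450.1 to 1389 CPM (median 807). Bmp1 thus did not overlap between groups and rose by 1.41 ± 0.23 (SE), or 2.66-fold (edgeR adjusted p = 0.00570). With the library set as a factor the rise was 1.27 (edgeR adjusted p = 0.0270). Of 22 tested genes within 500 kb of Sftpc, Bmp1 was the only one called. Of the 22, 6 had an unadjusted p under 0.05, as had 2850 of all 16546 genes tested. Lgi3, which follows at a gap of 4465 bases, differed by 0.19. Whether the recombinase was inserted at Sftpc or elsewhere is not given in the labels.

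Hdc makes histamine from histidine and is known chiefly from mast cells, basophils and the stomach. The 4 low libraries of the Yap active line held 160.3, 169, 175 and 181 CPM of Hdc, and the 6 high libraries 317 to 445 CPM (median 404). For the Yap deleted line the values were 85.99, 211 and 191 CPM in the 3 low libraries and 173 to 463 CPM (median 366) in the 6 high ones. The groups did not overlap in the Yap active line. In the Yap deleted line the library labelled deleted control 2, at 173 CPM, lay among the low libraries. Within each library set of that line the groups did not overlap. In set 2, deleted control 1, a low library, held 85.99 CPM against 173 CPM. In set 1 the low libraries held 191 and 211 CPM and the high ones 259 to 463 CPM. Hdc kept its call with the library set as a factor. Hdc rose by 1.14 ± 0.19 (SE) (edgeR adjusted p = 0.00770). Of 12 mast cell and basophil markers 5 could be tested, and the other 4 were lower with high Esr1, none of them called: Kit at −1.46, Gata2 at −2.11, Gata1 at −1.09 and Cpa3 at −0.74 on the log2 scale. Cpa3, a defining mast cell protease, reached at most 3.38 CPM and was at 0 in active control 4, against 85.99 CPM or more for Hdc. Kit was highest in deleted control 1 and deleted control 2, at 102 and 48.5 CPM. The markers' sum, Hdc included, was 177 to 198 CPM in low and 325 to 449.5 CPM in high libraries of the Yap active line, and 204 to 297 against 272 to 467 CPM in the Yap deleted line. The part of such cells in the rise of Hdc was not tested.

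Klk13 and Klk14 are neighbouring serine protease genes on chromosome 7 (chr7:43680880-43695536 for Klk14). Low libraries of the Yap active line held 7.64, 6.60, 8.50 and 4.18 CPM of Klk14, against 15.3 to 24.3 CPM (median 21.4) in the 6 high libraries. Those of the Yap deleted line held 4.48, 7.10 and 9.72 CPM, against 6.68 to 37.3 CPM (median 28.5) in 6 high libraries. Deleted control 2, at 6.68 CPM, again lay among the low libraries, and the other 5 high libraries of that line lay above all of them. It exceeded deleted control 1, the low library of its set, at 4.48 CPM. For Klk13 it did not, at 6.99 against 7.48 CPM. Klk14 rose by 1.73 ± 0.27 (SE) and Klk13 by 1.27 ± 0.24 (SE) (edgeR adjusted p = 0.00495 and 0.0318). With the library set as a factor Klk14 kept its call, at 1.44 ± 0.19 (SE), and Klk13 did not, at 0.92 ± 0.21 (SE) (edgeR adjusted p = 0.00186 and 0.122). Klk13 lay at 6.40 to 14.4 CPM in low and 16.6 to 37.3 CPM in high libraries of the Yap active line, and at 7.48 to 9.41 against 6.99 to 27.98 CPM in the Yap deleted line. The other 6 kallikreins that could be tested were not called, at −0.53 to 0.03 on the log2 scale.

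The remaining called risers have no role in common that a list used here covers. Slc19a2, a thiamine transporter, lay at 8.39 to 10.4 against 14.3 to 21.6 CPM in the Yap active line and at 8.74 to 10.1 against 12.2 to 25.01 CPM in the Yap deleted line, a rise of 0.92 ± 0.12 (SE) with no overlap (edgeR adjusted p = 6.91e-04). N28178, now named Phf24, rose by 1.97 ± 0.31 (SE), with 5.06 to 13.8 against 16.5 to 33.7 CPM in the Yap active and 2.996 to 5.28 against 9.87 to 38.7 CPM in the Yap deleted line. Gm11974, the small nucleolar RNA host gene Snhg15, rose by 1.08 ± 0.16 (SE) at a level of 1.43 to 5.90 CPM across libraries. These 3 kept their call when any one library was left out.

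The other 7 risers had smaller or less stable differences. Exoc4, an exocyst subunit, rose by 0.78 ± 0.14 (SE), Tubb2a, a beta tubulin, by 0.75 ± 0.14 (SE), Cyfip2, of the actin-regulating WAVE complex, by 0.66 ± 0.12 (SE), and Abcc4, an efflux transporter, by 0.58 ± 0.11 (SE). Plcd4, a phospholipase C, rose by 1.71 ± 0.33 (SE), the noncoding RNA A930001C03Rik by 1.84 ± 0.34 (SE), and Trem2, a receptor of myeloid cells, by 1.46 ± 0.27 (SE), all 3 at 0.185 to 6.29 CPM. Beside Trem2, 16 macrophage markers had a median of −0.35, 5 higher and 11 lower, with none called by edgeR. At an unadjusted p under 0.05 there were 0, against 10.2% of all genes higher and 7.01% lower. These 7 genes, and Klk13 and Map7d2, each lost the call without active control 1, without active 1 and in 3 to 13 further such fits. Their highest adjusted p by edgeR in those fits was 0.0765 to 0.184. The same 9 genes were not called with the library set as a factor (edgeR adjusted p = 0.0569 to 0.256).

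Map7d2, a microtubule-associated protein, was the only gene called lower. Map7d2 lay at 0.433, 0.822, 0.287 and 0.814 CPM in the 4 low libraries of the Yap active line and at 0.149 to 0.360 CPM (median 0.157) in its 6 high libraries. The 3 low libraries of the Yap deleted line held 0.617, 0.527 and 0.309 CPM, and its 6 high libraries 0.0877 to 0.224 CPM (median 0.195). All its levels lie under 1 CPM, and low and high libraries overlapped in the Yap active line. It fell by 1.44 ± 0.29 (SE) on the log2 scale (edgeR adjusted p = 0.0497), and without any 1 of 15 libraries the call was lost. No gene was lower without overlap in both lines (0 of 16546, 0%). Gpr50, an orphan receptor, did not overlap in either line and was not called, at 2.05 ± 0.45 (SE) (edgeR adjusted p = 0.0906) and at most 0.443 CPM.

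Each line on its own gave the same direction for the 25 genes. These genes were called with both lines fitted together, which favours a shared direction, so this is a description and not independent support. In the Yap active line edgeR called 7 of 15684 genes (0.0446%), all higher (at an unadjusted p under 0.05, 12.7% were higher and 13.2% lower). These were Cdkn1a, Gdf15, Gm16197, 9030617O03Rik, Ccng1, Klk14 and Hdc. In the Yap deleted line it called 0 of 16081 genes, with 458 at an unadjusted p under 0.05 (1.56% of genes higher and 1.29% lower), and DESeq2 called 36. Cdkn1a differed by 3.02 ± 0.25 (SE) in the Yap active and 2.60 ± 0.43 (SE) in the Yap deleted line. Gdf15 differed by 3.78 ± 0.30 (SE) and 3.91 ± 0.78 (SE), Psrc1 by 3.27 ± 0.53 (SE) and 3.96 ± 0.62 (SE), and Bmp1 by 1.09 ± 0.20 (SE) and 1.85 ± 0.38 (SE) in the same order. N28178 differed by 1.45 ± 0.28 (SE) and 2.69 ± 0.48 (SE). The count of the Yap active line rested on single libraries: without active control 2 it was 2152, and without active control 4 it was 5026. DESeq2 called 966 there.

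**Figure D4:**
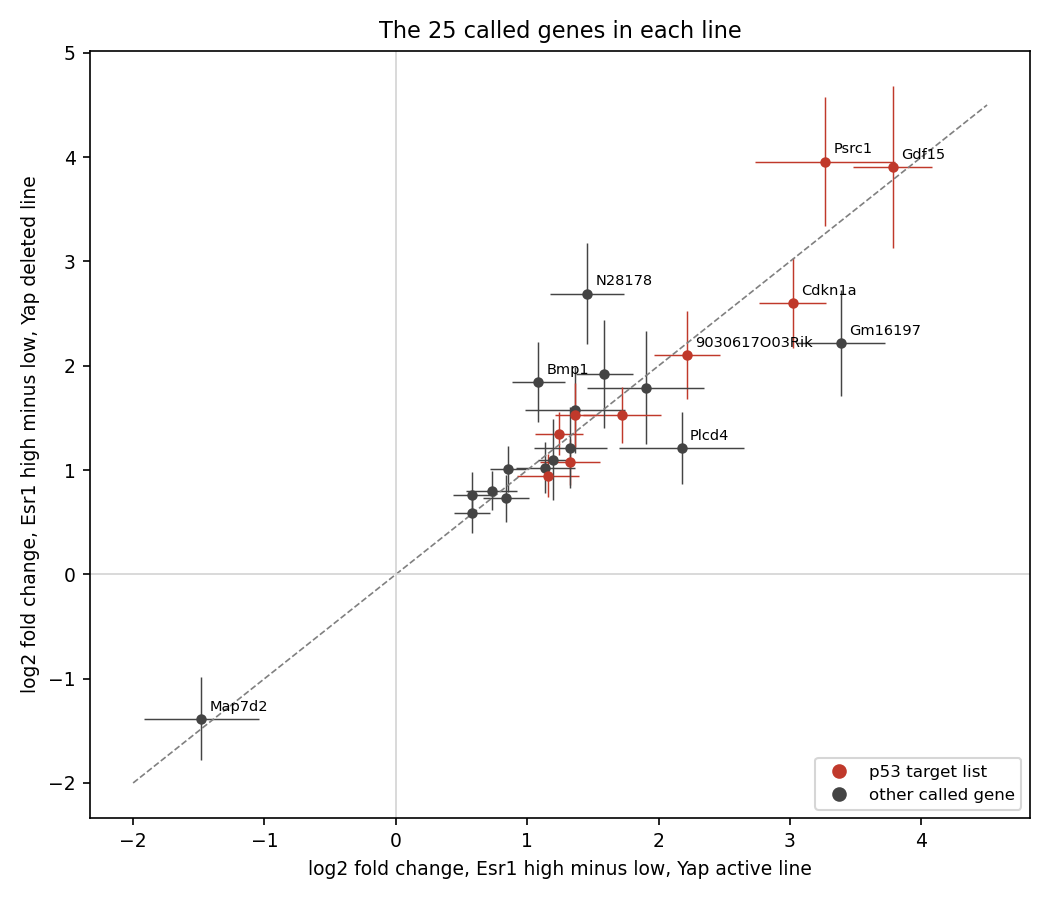
Log2 fold change (high minus low Esr1) of the 25 called genes in the Yap active line (horizontal) and the Yap deleted line (vertical), with standard errors; red marks the 9 genes of the p53 list and the dashed line equal changes. Points lie along the dashed line, with 24 genes in the upper right and Map7d2 in the lower left. The genes were called with both lines fitted together, which favours a shared direction.

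The difference between the lines was tested directly as an interaction. EdgeR called 0 of 16546 genes, with 588 at an unadjusted p under 0.05 (1.46% and 2.09% of genes higher and lower in the Yap deleted line), and DESeq2 called 0. The smallest p toward a larger change in the Yap deleted line came from the Wnt antagonist Sfrp4, Gpr161, Pianp, Pus7 and Gria4, and toward a smaller change the genes of small p included Entpd8, Dpep3, Grin1 and Itpkb. Sfrp4 differed by −0.87 in the Yap active and by 1.63 in the Yap deleted line (edgeR adjusted p of the difference = 0.841). For Cdkn1a the Yap deleted line's change less that of the Yap active line was −0.45 ± 0.44 (SE), for Gdf15 0.10 ± 0.69 (SE), and for Bmp1 0.73 ± 0.40 (SE). A p that misses the threshold does not show that the lines change alike.

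Grouping by the labelled genotype in place of Esr1 gave another result. EdgeR then called 0 of 16546 genes, with 4713 at an unadjusted p under 0.05 (12.6% higher and 15.9% lower). The log2 difference of Cdkn1a was 2.01 ± 0.44 (SE) by label against 2.82 ± 0.25 (SE) by Esr1, and that of Gdf15 2.58 ± 0.62 (SE) against 3.83 ± 0.40 (SE). With both terms in 1 model, the Esr1 term called Cdkn1a, Gdf15 and Gm16197, and the genotype term called 0 genes. In that model Cdkn1a differed by 2.34 ± 0.30 (SE) with Esr1 and by 0.62 ± 0.31 (SE) with the label. Only the 3 libraries against their label separate these terms, and all are in set 2.

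Those 3 libraries were then left out, and the other 16 chose the genes. EdgeR called 504 of 16295 genes (3.09%), 162 higher (0.994%) and 342 lower (2.1%), or 13.7% and 16% at an unadjusted p under 0.05. Among the called were 14 genes of the p53 list, all higher. Each held-out library was placed, gene by gene, by whether its log2 level was nearer the mean of the high or of the low libraries of its line. The library labelled active 1 was nearer the low mean for 14 of the 14 p53 genes and for 149 of all 162 risers. The library labelled active control 2 was nearer the high mean for 8 of the 14 p53 genes and for 47 of the 162 risers. The library labelled deleted control 2 was nearer the high mean for 9 of 14 and for 37 of 162. For most of the risers outside the p53 list, both control-labelled libraries with high Esr1 thus lay nearer the low libraries. For the 342 genes that fell, all 3 libraries lay nearer the low mean for most, 336, 258 and 323 in the same order. Among the 16, all 10 high libraries are of set 1, while the low ones are of both sets, so the 504 calls move with the set as well as with Esr1.

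Within the 12 high libraries, the called genes can be set against the level of Esr1, on log2 scales. Esr1 chose both the groups and the genes, and the libraries come from 2 lines and 2 sets, so these correlations are a description with no test. Pearson's r was above 0 for 23 of the 25 genes, for 22 within the 10 libraries of set 1, and for 21 without deleted control 2 and deleted 1, the 2 libraries farthest from the median of Esr1. For Cdkn1a r was 0.848 and Spearman's rho 0.748 over 12 libraries, and r was 0.668 without those 2. It was 0.823 within the 6 high libraries of the Yap active line, 0.939 within those of the Yap deleted line and 0.693 within set 1. For Gdf15 r was 0.889 and rho 0.678, and r was 0.666 without the same 2 libraries. With and, in brackets, without them r was 0.770 (0.351) for Hdc, 0.731 (0.317) for Ccng1, 0.711 (0.328) for Klk13, 0.790 (0.427) for Klk14, 0.512 (−0.0318) for N28178 and 0.391 (−0.177) for Abcc4, so for these 6 genes it rests largely on those libraries. Trem2, at −0.105, and Map7d2, at −0.484, were below 0.

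Of the floxed genes, Yap1 separated the Esr1 groups in the line where it is floxed, and Stk3 and Stk4 did not. Yap1, the gene removed in the Yap deleted line, lay there at 211, 164 and 182 CPM in low and 76.99 to 133 CPM (median 94.4) in high libraries, with no overlap, and the library labelled deleted control 2 was among the high at 116 CPM. In the Yap active line Yap1 lay at 185 to 214 against 156 to 208 CPM. Over both lines Yap1 differed by −0.50 ± 0.13 (SE) and was not called (edgeR adjusted p = 0.214). That fit joins the line where Yap1 is floxed with a line where it is not. The mean was 99.4 against 186 CPM, high against low, in the Yap deleted line, and 184 against 202 CPM in the Yap active line. Reads from exons that the deletion leaves in place still add to the count of a floxed gene. In bulk samples fewer recombined cells and less RNA per cell cannot be told apart.

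Stk4, a Hippo kinase floxed in the Yap active line, lay there at 106, 114, 125 and 126 CPM in low and 80.2 to 107 CPM (median 92.1) in high libraries. The library labelled active control 2 held 107 CPM, above the lowest of the low libraries. Stk4 differed by −0.30 ± 0.10 (SE) over both lines (edgeR adjusted p = 0.260), a fit that includes the line where it is not floxed. Stk3, floxed with it, lay at 54.9, 55.7, 35.5 and 50.3 CPM in low and 31.8 to 50.9 CPM (median 34.8) in high libraries of that line. Its high values were those of active control 1, 2 and 3 and of active 1, all of set 2, while active control 4, a low library of set 1, lay with the high libraries of set 1. Stk3 also differed by set in the Yap deleted line, where it is not floxed, at 39.9 and 36.6 CPM in set 2 and 19.3 to 26.5 CPM in set 1. Its difference was −0.26 ± 0.16 (SE) and turned to 0.03 with the set as a factor (edgeR adjusted p = 0.367 and 0.976).

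Sftpc, the surfactant gene whose promoter drives the recombinase, defines AT2 cells and was abundant in every library. It lay in the Yap active line at 18028, 18544, 86885 and 11409 CPM in low and 11814 to 59004 CPM (median 40381) in high libraries. Low libraries of the Yap deleted line held 10165, 29425 and 44555 CPM. The high libraries deleted 1 and deleted 2 held 2805 and 1941 CPM, deleted control 2 7398 CPM, and deleted 3 to 5 23456 to 27032 CPM. Deleted 1 and 2, lowest in Sftpc, were highest in Esr1. Over both lines Sftpc differed by −0.36 ± 0.54 (SE) (edgeR adjusted p = 0.722), and by 0.02 without active control 4.

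The lists of AT2 and AT1 genes held no called member, but most of their genes leaned one way. Of 30 AT2 genes 28 were higher and 2 lower with high Esr1, with a median of 0.42 (all genes −0.02). At an unadjusted p under 0.05, 12 were higher, against 10.2% of all genes. The median was 0.53 in the Yap active and 0.31 in the Yap deleted line, and 0.19 with the library set as a factor. S100g, a calcium-binding protein, differed by 0.90 ± 0.26 (SE), Napsa, an aspartic protease that processes surfactant protein, by 0.77 ± 0.29 (SE), and Sftpb by 0.70 ± 0.26 (SE). Of 30 AT1 genes 27 were lower and 3 higher, with a median of −0.45. At an unadjusted p under 0.05, 8 were lower, against 7.01% of all genes. For AT1 genes the median was −0.08 in the Yap active and −0.81 in the Yap deleted line, and −0.45 with the set as a factor, but −0.79 within set 1 and 0.09 within set 2. The caveolin Cav1 differed by −0.89 ± 0.28 (SE) and the membrane-associated Ahnak by −0.65 ± 0.21 (SE). The genes named here were not called (edgeR adjusted p = 0.257 for S100g and 0.260 for Cav1). Summed, AT1 genes lay at 9267 to 21206 CPM in low and 13604 to 19374 CPM in high libraries of the Yap active line, and at 12156 to 27144 against 8659 to 18052 CPM in the Yap deleted line, overlapping in both. No gene of the other epithelial lists was called. Of 9 basal cell genes 1 was higher and 8 lower, with a median of −0.32. With the set as a factor the counts were 3 and 6, with a median of −0.20. Of 10 neuroendocrine cell genes 4 were higher and 6 lower, or 3 and 7 with the set. Of 18 club and goblet cell genes 10 were higher and 8 lower, or 2 and 16 with the set as a factor. Of 15 ciliated cell genes 7 were higher and 8 lower, and of 23 transitional alveolar cell genes 14 and 9, or 8 and 15 with the set.

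All 21 nuclear genes of oxidative phosphorylation were higher, with a median of 0.37 and 17 at an unadjusted p under 0.05 (10.2% of all genes). With the set as a factor all 21 stayed above 0, with a median of 0.18 and 6 at that p (4.29% of all genes). Ndufb3, a subunit of complex I, had the smallest p, at 0.53 ± 0.12 (SE) (edgeR adjusted p = 0.0906). Of 25 Hippo pathway genes 20 were lower, with a median of −0.26. At an unadjusted p under 0.05, 11 were lower, and 10 with the set as a factor, against 7.01% and 2.89% of all genes. The list holds the floxed genes Stk3, Stk4 and Yap1, which the recombinase targets; of the other 22 genes 17 were lower, with a median of −0.24 and 9 at that p, or 8 with the set. Tead1, the DNA-binding partner of Yap, differed by −0.60 ± 0.15 (SE) and Frmd6 by −0.41 ± 0.11 (SE) (edgeR adjusted p = 0.184 and 0.189). Of 25 Yap and Tead target genes 21 were lower, with a median of −0.42, and −0.15 with the set as a factor. With the set 23 were lower. At an unadjusted p under 0.05, 8 were lower, and 5 with the set, against 7.01% and 2.89% of all genes. Ptpn14 differed by −0.46 ± 0.13 (SE) and Lats2 by −0.45 ± 0.14 (SE). None of these list members was called.

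Genes of other cell types and of interferon response had the lowest list medians, and these moved with the library set. Of 15 endothelial genes 14 were lower, with a median of −1.67, and −0.53 with the set as a factor. With the set 14 were still lower. At an unadjusted p under 0.05, 9 were lower, and 2 with the set, against 7.01% and 2.89% of all genes. The summed endothelial level was 282 to 580.0 CPM in low and 228 to 332 CPM in high libraries of the Yap active line, and 318 to 2988 against 222 to 2562 CPM in the Yap deleted line. Its highest values there were in deleted control 1 and deleted control 2, both of set 2 and in opposite Esr1 groups. All 26 interferon-stimulated genes were lower, with a median of −1.34, and −0.34 with the set as a factor. With the set 24 were still lower and 2 higher. At an unadjusted p under 0.05, 15 were lower, and 4 with the set. Their sum was 250.3 to 924 against 209.6 to 336 CPM in the Yap active and 259 to 1270.0 against 215 to 922 CPM in the Yap deleted line. Cell division genes had a median of 0.37, and −0.05 with the set as a factor. The part of these cells or of the set in the results above was not tested beyond the fits with the set as a factor.

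Metabolic and stress lists leaned upward in the same way, with no called gene. Of 19 genes of the Nrf2 and xenobiotic response 16 were higher, with a median of 0.28, and 0.02 with the set as a factor. Of 29 genes of sterol and fatty acid synthesis, which supply surfactant lipid, 24 were higher, with a median of 0.27, and 0.08 with the set. Of 22 genes of the integrated stress and unfolded protein response 17 were higher, with medians of 0.18 and 0.05. Of 10 MHC class II genes 8 were higher, with medians of 0.46 and 0.02. In the other direction, 14 of 16 mesenchymal genes were lower, with a median of −0.41 that turned to 0.22 with the set, and 9 of 11 lymphocyte genes were lower, with medians of −1.18 and −0.20.

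Lists close to the p53 response held no called gene by edgeR. Of 30 genes of DNA damage signalling and repair 19 were higher and 11 lower, with a median of 0.09 (−0.04 with the set as a factor). At an unadjusted p under 0.05, 1 was higher and 1 lower, against 10.2% and 7.01% of all genes. The repair ligase Lig4 differed by −0.32 ± 0.09 (SE) and the end-binding Xrcc6 by 0.36 ± 0.14 (SE). Of 20 further apoptosis effectors 13 were higher, with a median of 0.07. Of 20 senescence and secretory genes 16 were lower, with a median of −0.54 (−0.95 in the Yap active and 0.16 in the Yap deleted line). With the set as a factor 7 of these were higher and 13 lower, with a median of −0.15. Of 23 genes known to respond to estrogen 11 were higher and 12 lower, with a median of −0.01 (0.11 with the set as a factor). At an unadjusted p under 0.05, 5 were higher and 2 lower, against 10.2% and 7.01% of all genes. With the set the counts were 4 and 1, against 4.29% and 2.89%. Ctsd lay at 313 to 455 CPM in low and 370 to 511 CPM in high libraries of the Yap active line. In the Yap deleted line Ctsd lay at 354 to 463 against 407 to 627 CPM. Pgr, the progesterone receptor and a standard estrogen target, differed by −1.76 ± 0.57 (SE) at no more than 3.06 CPM. That value was of deleted control 1, and every other library held at most 0.963 CPM. The other low libraries of the Yap deleted line held 0.166 and 0.0617 CPM, against 0.163 to 0.391 CPM in its high libraries.

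**Figure D5:**
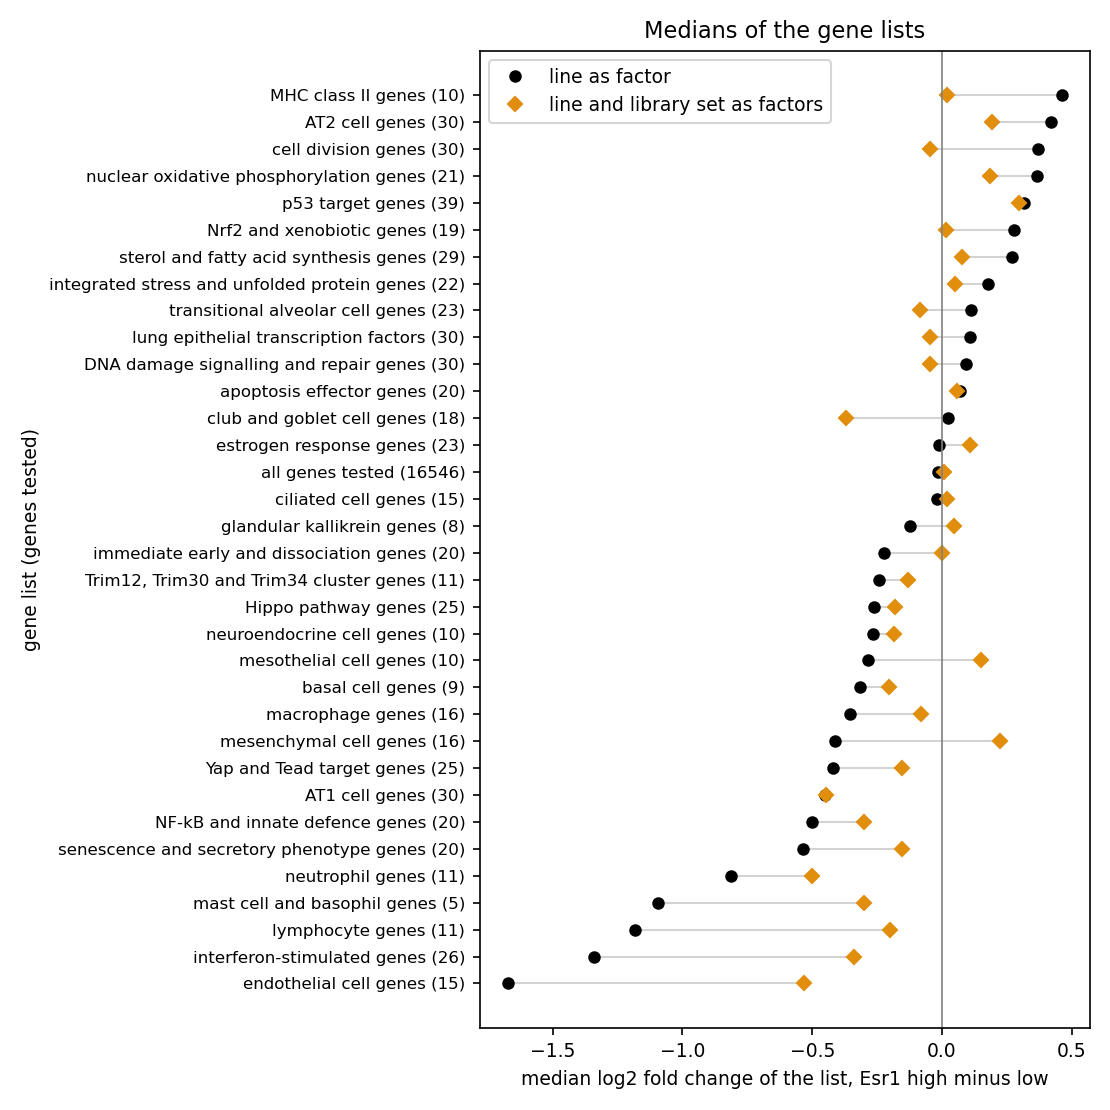
Median log2 fold change (high minus low Esr1) of each gene list, with line as a factor (black circles) and with line and library set as factors (orange diamonds); genes tested are in brackets. The p53 and AT1 lists keep their medians with the set as a factor, while the endothelial list moves from −1.67 to −0.53 and cell division genes from 0.37 to −0.05.

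The authors' deposited ATAC-seq lists give chromatin regions opened or closed in each line by their own comparison, with the nearest gene of each. Those lists follow the labels, and which ATAC libraries carry the recombinase was not examined. Of the 25 called genes 9 had a region opened in Yap active cells (36%, against 25.4% of genes tested), and 0 a region closed there (against 5.84%). In the Yap deleted line 3 had an opened region (12% against 2.43%) and 2 a closed one (8% against 2.96%). Gm16197 and N28178 were on the opened lists of both lines. In the authors' deposited table for the Yap active line (mm10), the opened region of Gm16197 is chr17:29078472-29079314, 233 bases from its start, and that of Gdf15 is intronic, 1591 bases from the start. In the same deposited table, regions at the promoters of Abcc4, Bmp1, Cyfip2 and Exoc4 were opened. Cdkn1a, Ccng1, Bax and Aen were on none of the 4 lists.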

How the data were processed

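RNA of 19 sorted lung libraries was analysed as 2 deposited gene count tables, 1 per line, each with 23478 rows. Per the labels' protocols and the submitters' processing notes, Trim Galore, Bowtie2, Cufflinks, DESeq and HOMER were used with mm10; the program and annotation behind the counts are not given in the sources used here. The authors deposited whole-number counts, not normalized, and 27 gene names have turned into dates. The deposited region lists carry a score per region in an unstated unit, per the file headers, and were used only for their position and nearest gene. Groups came from Esr1 CPM (50.0 or more, under 10.0). Members and gene lists were chosen with earlier results of these data known.

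Counts of both tables were joined by gene and fitted with edgeR 4.0.16 (R 4.3.3; filterByExpr, TMM, glmQLFit and glmQLFTest, line as factor, Benjamini-Hochberg adjustment at 0.05). Each line alone and the interaction were fitted likewise. Alternatives used RLE scaling, no filter, DESeq2 1.42.0, limma 3.58.1 voom weights, covariates, blocks and left-out libraries. Esr1 values, which chose the groups, are CPM of the library total; levels of other genes, and sums over lists, are CPM of the TMM-scaled total. Named genes were Stk3, Stk4, Yap1 and Sftpc, up to 15 called genes per direction of largest change with a mean of 1 CPM or more in the higher group and no overlap in either line, list members called or without overlap, up to 3 more per list, and 5 per direction of smallest p for the difference of the lines; some that met the rule are not reported here. The other called genes and the further p53 targets were named after their values were seen. On simulated data with the real means, the test called 67 of 99 genes changed by 1 and 89 of 98 changed by 2 on the log2 scale, and 8 unchanged genes among 16398. Those counts were drawn independently with no library set, so they cannot give the power or false calls of the test on these libraries. No pair of libraries agreed within sampling noise. Symbols of 16464 of 16546 genes matched RefSeq. For the held-out libraries and for correlations with Esr1, log2(CPM + 0.5) was used.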

Additional observations from a re-analysis of the deposited data

Results flagged for a closer look

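Of 87 sets of values looked at (a called gene, Stk3, Stk4, Yap1 or Sftpc in 1 line and Esr1 group of 4 to 6 libraries), 5 held a library far from the others by Dixon's criterion, and chance alone flags about 1 in 20. Stk3 in active control 2 was at 50.92 CPM, above the other 5 high libraries of the Yap active line; that library is the one of set 2 among them. Sftpc in active control 4 was at 86885 CPM, and Tubb2a in the same library at 87.53 CPM, each above the other 3 low libraries; that library is the one of set 1 among them. A930001C03Rik in active 6 was at 2.504 CPM, far from the other high libraries of its line. Cyfip2 in deleted 4 was at 106.6 CPM, above the other high libraries of the Yap deleted line.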

How the results depend on the processing

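With both lines fitted together, 25 genes were called. DESeq2 called 160, limma-voom with sample weights 8037 and, without the 3 libraries against their label, edgeR 504. Labelled genotype in place of the Esr1 group gave 0, and with the library set beside it 0. Esr1 beside the label gave 3, and set 2 alone 1. Fits with RLE scaling, no filter, sex, log2 Esr1, the library set, set 1 alone, or without deleted control 1 and 2 gave 19 to 35. Leaving out each library gave 16 to 651 genes, the last without deleted control 2. In the Yap active line alone it gave 6 to 5026, and DESeq2 966. In the Yap deleted line it gave 0, and DESeq2 36. For the difference of the lines it gave 0, and 1 without active 6. Alternatives that use the library sets, the label beside Esr1, and levels not scaled by TMM were chosen after seeing the data. The cause of these differences was not tested.

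The replicate block called 0 genes with both lines, 0 in the Yap active line, 0 in the Yap deleted line and 0 for the difference. Libraries that share a number had deviations correlated at 0.609, 0.0348, 0.138 and 0.604 in the Yap active line and at −0.245, 0.530, −0.0177 and 0.479 in the Yap deleted line, so the numbers were not taken to pair libraries.

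All 25 called genes kept their direction in each of these fits. Stk3 turned from −0.26 to 0.0266 with the library set, 0.0975 in set 1 alone, 0.0477 with set and sex, and 0.0465 with label and set. Sftpc turned to 0.382 with voom weights, and lay between −0.541 and 0.0244 when 1 library was left out, the last without active control 4. Genes under 1 CPM, such as Map7d2 and Gpr50, rest on few counts in each library. The 3 libraries against their label, all of set 2, are what separates label from Esr1 group, and 2 high libraries of set 2 are what separates set from group on that side.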
